A study of Mus musculus with 8 samples.

Results

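The regions described here carried a peak of histone H3 acetylated at lysine 27 (H3K27ac) in both libraries of 266-6 cells given siRNA against Arid1a and then EGF, and in neither library of cells given EGF after a non-targeting siRNA. At most 1 of the 2 ctrl libraries, from cells given a non-targeting siRNA and vehicle, was allowed a peak, and the libraries of cells given siRNA against Arid1a without EGF were left free. Peaks of all 8 libraries that shared at least 1 bp were merged to 33920 regions, and 443 of them (1.31%) met this rule. Without the condition on ctrl, 684 regions (2.02%) had both siArid1aplusEGF peaks and no EGF peak. The rule reads peak presence in the siArid1aplusEGF, EGF and ctrl libraries, so values in those libraries are given as a description and support nothing. The working name of the set, regions gained with knockdown under EGF, only restates the rule where EGF alone is concerned. Against ctrl cells it holds in part, since 258 of the 443 regions (58.2%) also had a peak in 1 ctrl library and 397 (89.6%) had a peak in at least 1 vehicle library of either siRNA.

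The 266-6 line is a mouse pancreatic acinar cell line. Each of 4 groups had 2 libraries, named as in the labels. The siArid1aplusEGF cells received siRNA against Arid1a at 25 nM for 48 h and EGF at 40 ng/ml for 8 h, and the EGF cells a non-targeting siRNA and the same EGF. The siArid1a cells received siRNA against Arid1a and the vehicle of 0.1% BSA for 8 h, and the ctrl cells the non-targeting siRNA and vehicle. All cells were kept without serum overnight before that step. The labels spell the siRNA target as the human gene and do not say whether it matches mouse Arid1a, and Arid1a levels were not analysed here. A single cell line was used, and nothing says that the duplicates were separate cultures, so the spread between them may be technical.

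Arid1a binds DNA within the SWI/SNF remodelling complex, which uses ATP to move and evict nucleosomes and keeps many enhancers open. EGF binds the EGF receptor and acts through RAS and ERK on transcription factors at enhancers and promoters. In the exocrine pancreas this pathway is known for driving acinar cells towards a duct-like state. H3K27ac marks active promoters and enhancers, and peaks that come and go between treatments are commonly read as changes in the use of such elements. Genes near the regions, their DNA sequence and markers of the cell type were not analysed here, because the peak positions are in build mm9 and the gene table at hand is of another build.

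The data are 1 list of peaks per library. The siArid1aplusEGF lists held 22030 and 23256 peaks, the EGF lists 22361 and 23080, the siArid1a lists 26844 and 27558, and the ctrl lists 22167 and 28281. The first ctrl list is thus the shorter of the ctrl duplicates, and most of the ctrl peaks in the 443 regions came from the longer list. Read depth is unknown, so no counting interval is given, and a region without a peak may still be acetylated below the caller's limit.

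Knockdown cells that had received no EGF were the only group that the rule did not read, and they held the 443 regions about as often as they held any region. A peak was present in 333 of the 443 (75.2%) in the first siArid1a library and in 352 (79.5%) in the second. Over all 33920 regions the shares were 76.8% and 79.3%, and over the 9664 regions with a peak in 2 to 6 libraries 66.6% and 72.3%. Both siArid1a libraries had a peak in 302 regions (68.2%), 1 of them in 81 (18.3%) and neither in 60 (13.5%). Over all regions, both siArid1aplusEGF peaks without a siArid1a peak were found in 0.996%, a pattern whose siArid1aplusEGF side the rule fixes, so nothing is read from the 60. The ctrl libraries, which the rule held to 1 peak at most, had a peak in 24 regions (5.42%) for the first and 234 (52.8%) for the second. No ctrl peak was found in 185 regions (41.8%), beside 1.93% of all regions with both siArid1aplusEGF peaks and no ctrl peak, and 88 (19.9%) had both siArid1a peaks and no ctrl peak, beside 3.04% of all regions. The rule used the ctrl libraries, so nothing is read from these counts either.

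The same reading was made for the 432 regions of the reversed rule, with a peak in both EGF libraries, in neither siArid1aplusEGF library and in at most 1 ctrl library. There the siArid1a libraries had a peak in 145 (33.6%) and 155 (35.9%) regions, 41.6 and 43.6 percentage points below the 443 regions. The 443 regions lay near the share of all regions and above that of the 9664 regions with a peak in 2 to 6 libraries. The reversed set lay below both. Both siArid1a libraries had a peak in 104 of these regions (24.1%) and neither in 236 (54.6%). Peaks of the siArid1a libraries were thus more frequent in the 443 regions than in the reversed set. This is a count over 2 libraries and over regions that are not replicates, so no test is given for it.

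The difference was present within each pattern of ctrl peaks. Among regions without a ctrl peak, 88 of 185 (47.6%) of the siArid1aplusEGF regions had a peak in both siArid1a libraries, against 13 of 180 (7.22%) of the EGF regions. Among regions with a peak in the second ctrl library alone the counts were 199 of 234 (85.04%) and 88 of 242 (36.4%). The few regions with a peak in the first ctrl library alone gave 15 of 24 (62.5%) and 3 of 10 (30.0%). Regions without an EGF peak and with the second ctrl library alone could also be ranked by the siArid1aplusEGF libraries: both siArid1a libraries held 887 of 3745 (23.7%) with no siArid1aplusEGF peak, 306 of 504 (60.7%) with 1, and the 199 of 234 above with 2. With the first ctrl library alone the counts were 57 of 316 (18.0%), 20 of 38 (52.6%) and the 15 of 24. With no ctrl peak they were 537 of 3204 (16.8%), 151 of 867 (17.4%) and the 88 of 185. The 3204 regions exist only through a siArid1a peak, so their share is not comparable with the others.

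**Figure D1:**
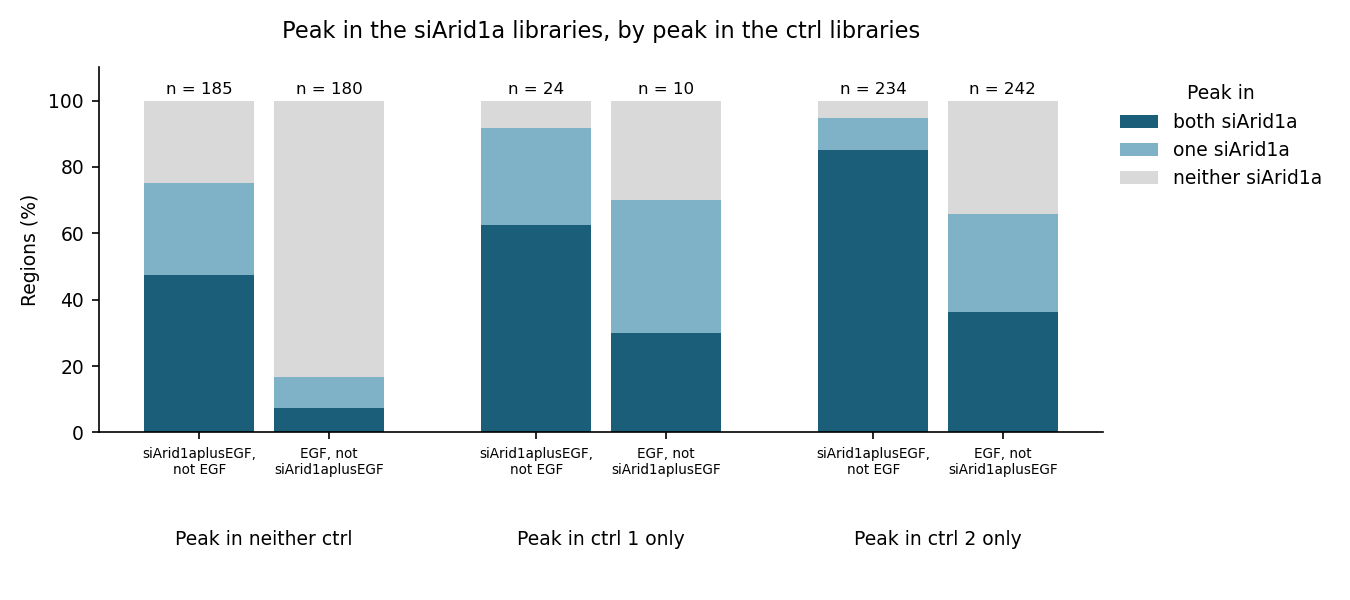
Share of regions (%) with a peak in both, 1 or neither siArid1a library, for the 443 regions in siArid1aplusEGF and not in EGF libraries (left bar of each pair) and the 432 of the reversed rule (right bar), by peak in the ctrl libraries. The dark part, a peak in both siArid1a libraries, is larger in the left bar for each ctrl pattern, at 47.6% against 7.22% where neither ctrl library had a peak.

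Dropping the ctrl condition left 4 libraries that played no part in the choice. Of the 684 regions with a peak in both siArid1aplusEGF libraries and neither EGF library, 82.3% and 86.5% had a peak in the siArid1a libraries, and 38.7% and 69.4% in the ctrl libraries. Of the 793 regions with the reverse pattern, 53.3% and 55.0% had a peak in the siArid1a libraries, and 46.8% and 76.0% in the ctrl libraries. Within a library, where both sets are read in the same list, the 684 regions were held more often than the 793 by 29.0 and 31.6 percentage points in siArid1a libraries. They were held less often in the ctrl libraries, with differences of -8.04 and -6.60 points. The mean difference was 30.3 ± 1.84 points in siArid1a and -7.32 ± 1.02 in ctrl libraries (SD, n = 2 each), so the groups did not overlap and lay 37.6 points apart. The two-sided exact permutation p was 0.333, the smallest that 2 libraries against 2 can give, so this design cannot reach the threshold.

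**Figure D2:**
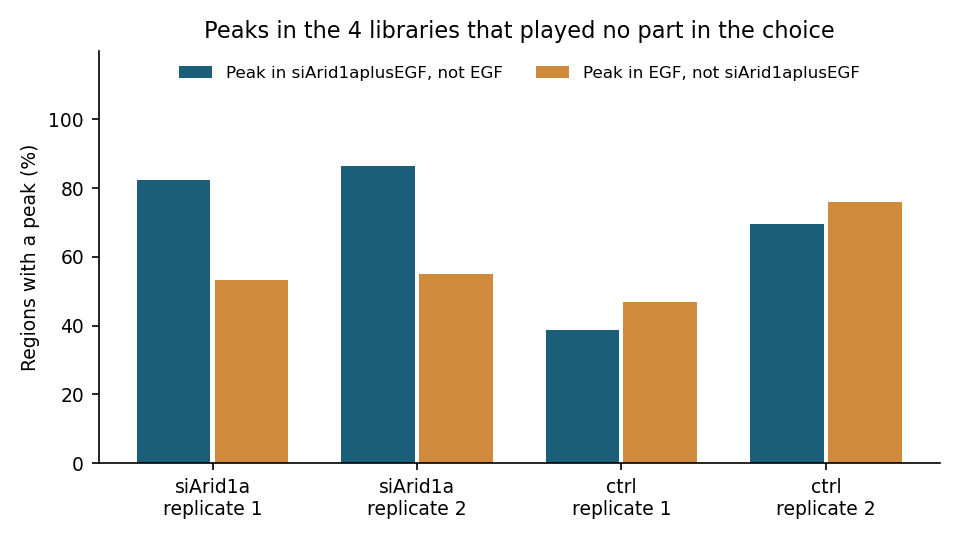
Share of regions (%) with a peak in each siArid1a and ctrl library, for the 684 regions with a peak in both siArid1aplusEGF and neither EGF library (blue) and the 793 with the reverse (orange), ctrl libraries left free. Blue exceeds orange in both siArid1a libraries, at 82.3% against 53.3% and 86.5% against 55.0%, and lies below it in both ctrl libraries.

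A choice made in one replicate number was read in the other. In replicate 1, 1257 regions had a siArid1aplusEGF peak and neither an EGF nor a ctrl peak. Of these, 419 (33.3%) had a peak in the siArid1aplusEGF library alone of the replicate 2 siArid1aplusEGF and EGF libraries, 118 (9.39%) in the EGF library alone, 287 (22.8%) in both and 433 (34.4%) in neither. The 1350 regions chosen the other way in replicate 1 gave 120 (8.89%) with siArid1aplusEGF alone and 422 (31.3%) with EGF alone.

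Chosen in replicate 2, 974 regions gave 209 (21.5%) with siArid1aplusEGF alone in replicate 1, 57 (5.85%) with EGF alone and 636 (65.3%) with neither. The 749 chosen the other way gave 56 (7.48%) with siArid1aplusEGF alone and 190 (25.4%) with EGF alone. In all 4 readings the direction of the choice was the more frequent one in the libraries not used for it. It was repeated by 21.5% to 33.3% of the chosen regions. Those that repeated it meet the full rule, so they are themselves among the 443 or the 432 reversed regions. The readings thus describe these sets and are no separate support.

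The peaks in the 443 regions were weak ones within their lists. Scores are the authors', made from the q-value of each peak, and were turned into percentiles within a list. The median percentile was 12.0 and 14.8 in the siArid1aplusEGF libraries, against 51.8 and 51.7 over all regions those libraries held. Regions with a peak in 2 to 6 libraries were similarly weak there, at 13.4 and 15.3. Taking the lower of both siArid1aplusEGF percentiles for each region, the median was 8.80, 251 regions (56.7%) lay under the 10th percentile, 56 (12.6%) over the 25th and 1 over the 50th. The 432 reversed regions had similar values in their EGF libraries, with a median of 8.74, 235 (54.4%) under the 10th percentile and 1 over the 50th. The 1740 regions held by both siArid1aplusEGF libraries and by 2 to 6 in all had a median of 11.3. Of them, 45.1% lay under the 10th percentile.

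In the siArid1a libraries the peaks of the same regions ranked higher, as they did in other regions. The median percentile was 26.8 and 26.9 in siArid1a, over the 333 and 352 regions held, and 14.6 and 18.9 in ctrl, over 24 and 234 regions. In the 302 regions held by all 4 knockdown libraries the median was 16.0 in siArid1aplusEGF and 28.2 in siArid1a. The 958 regions held by the same 4 libraries and by 2 to 6 in all gave 18.2 and 29.5, and the regions held by all 8 libraries 62.4 and 68.9. The reversed regions reached 14.3 and 15.8 in siArid1a and 8.54 and 21.2 in ctrl libraries. The median fold enrichment, the caller's ratio over its background, was 3.62 and 3.53 in siArid1aplusEGF and 3.78 and 3.71 in siArid1a libraries over the 443 regions.

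**Figure D3:**
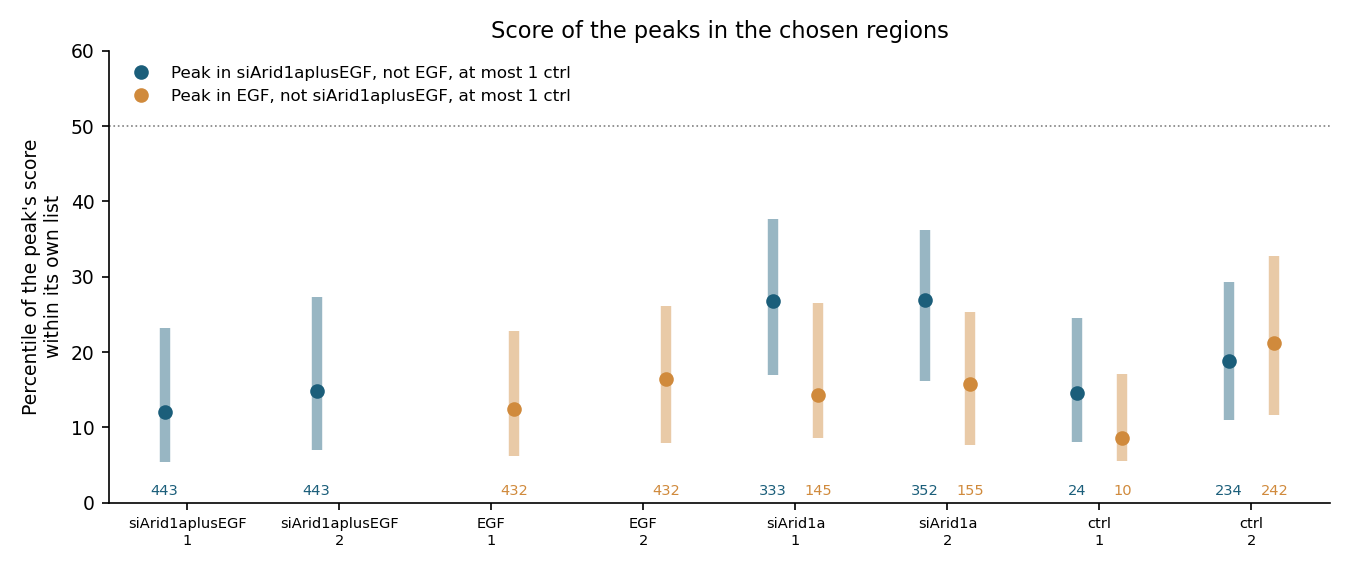
Percentile of the peak's score within its own list, as median (point) and interquartile range (bar), for the 443 regions in siArid1aplusEGF and not EGF (blue) and the 432 of the reversed rule (orange), with the number of regions held at the foot. The dotted line marks the middle of a list. All medians lie well under it, and the blue medians are highest in the siArid1a libraries, at 26.8 and 26.9.

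Covered length was also greatest in the siArid1a libraries. Over the regions a library held, the median covered length was 440 and 489 bp in the siArid1aplusEGF, 694 and 784 bp in the siArid1a, and 385 and 659 bp in the ctrl libraries. Of the 302 regions with a peak in all 4 knockdown libraries, 138 (45.7%) were narrower in both siArid1aplusEGF libraries than in either siArid1a library, and 21 (6.95%) were wider in both. The 958 comparable regions gave 48.9% narrower and 8.04% wider, and the 16607 regions with a peak in all 8 libraries 56.5% and 6.18%. The shares of the 302 regions lay close to those of the 958. The siArid1a lists cover 46.3 and 48.7 Mb against 34.2 and 36.8 Mb for siArid1aplusEGF, and the part of list length in these widths was not tested.

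The region that ranked first by its lower siArid1aplusEGF percentile lies on chromosome 8 from 125966678 to 125967350 (build mm9, as all positions here). It was covered over 463 and 478 bp in siArid1aplusEGF, 0 bp in both EGF, 276 and 431 bp in siArid1a and 0 and 200 bp in ctrl libraries. Its siArid1aplusEGF values exceeded those of the vehicle libraries. The second, on chromosome 10 from 81014110 to 81014840, had 213 and 309 bp in siArid1aplusEGF, 0 in EGF, 675 and 731 bp in siArid1a and 217 and 0 bp in ctrl libraries, so that it was widest without EGF. The third, on chromosome 9 from 107790311 to 107790914, had 235 and 379 bp in siArid1aplusEGF, none in EGF, 414 and 546 bp in siArid1a and 0 and 347 bp in ctrl libraries.

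Several of the 10 highest-ranked regions had no ctrl peak. On chromosome 17 from 34105649 to 34106023, 243 and 256 bp were covered in siArid1aplusEGF and 298 and 375 bp in siArid1a libraries, with none in EGF or ctrl, which makes it a mark of all 4 knockdown libraries alone. The same pattern was seen on chromosome 16 from 31081034 to 31082110, with 284 and 375 bp in siArid1aplusEGF and 306 and 952 bp in siArid1a libraries. On chromosome 15 from 38956881 to 38958237, 388 and 296 bp were covered in siArid1aplusEGF and 1318 and 332 bp in siArid1a libraries, again with none in EGF or ctrl. The siArid1a values of these regions are wide apart for the last 2, so their order against siArid1aplusEGF is within the spread.

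The others of the 10 were less even. On chromosome 13 from 63065788 to 63066609, 258 and 344 bp were covered in siArid1aplusEGF, and 749 and 0 bp in siArid1a libraries, so the siArid1a duplicates did not agree on a peak. On chromosome 10 from 7109044 to 7109447 the values were 274 and 377 bp in siArid1aplusEGF, 200 and 385 bp in siArid1a and 0 and 328 bp in ctrl libraries, which overlap. On chromosome 5 from 123525781 to 123526610 they were 410 and 604 bp in siArid1aplusEGF, 748 and 783 bp in siArid1a and 625 and 0 bp in ctrl libraries. The last of the 10 lies on an unplaced sequence of chromosome 13, was 224 bp wide and had a peak in 1 siArid1a library.

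Of the 60 regions with no siArid1a peak, 46 had a peak in the siArid1aplusEGF libraries alone. Their median covered length in the siArid1aplusEGF libraries was 372 bp, against 536 bp for the 302 regions with both siArid1a peaks. Region width is not compared here, because it is made of the peaks of all libraries that hold a region. The best-covered of the 5 first in rank, on chromosome 12 from 8888519 to 8889810, had 841 and 1194 bp in siArid1aplusEGF libraries and 0 bp in all 6 others. On chromosome 7 from 134327665 to 134328059 the siArid1aplusEGF values were 366 and 353 bp, and on chromosome 1 from 89794642 to 89795037 they were 396 and 312 bp, both with 0 bp in all 6 others. A further region on chromosome 1, from 154461887 to 154462777, had 287 and 791 bp in siArid1aplusEGF libraries and none elsewhere. The highest-ranked of the 60, on chromosome 6 from 99549678 to 99550011, had 207 bp in both siArid1aplusEGF libraries but also 218 bp in the second ctrl library.

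**Figure D4:**
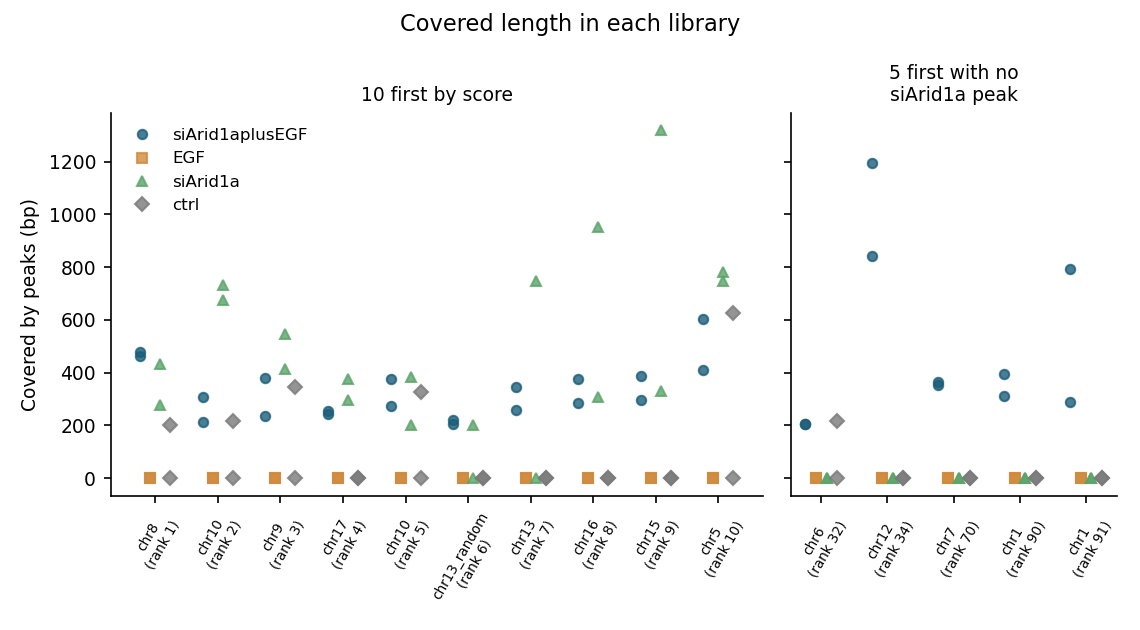
Length covered by peaks (bp) in each of the 8 libraries, 1 point per library, for the 10 regions that rank first by score and the 5 first among those with no siArid1a peak. EGF points are at 0 by the rule. Among the first 10 the siArid1aplusEGF points lie between 205 and 604 bp and the siArid1a points between 0 and 1318 bp, while the chromosome 12 region has 841 and 1194 bp in siArid1aplusEGF libraries alone.

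Each of the 3 widest regions had its greatest covered length in a siArid1a library. The widest, 4395 bp on chromosome 11 from 18647510 to 18651904, was covered over 604 and 315 bp in siArid1aplusEGF, 3998 and 2981 bp in siArid1a and 0 and 3887 bp in ctrl libraries. One of 3697 bp on chromosome 1, from 182887050 to 182890746, had 344 and 2030 bp in siArid1aplusEGF, 2544 and 2172 bp in siArid1a and 0 and 986 bp in ctrl libraries. One of 3395 bp on chromosome 11, from 11724049 to 11727443, had 750 and 609 bp in siArid1aplusEGF, 430 and 2163 bp in siArid1a and none in ctrl libraries. In the first and the second of these the siArid1a values lie above both siArid1aplusEGF values without overlap, and in the last they do not.

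The regions nearest to the edges of the rule are given here without a test. The lowest-ranked of the 443, on chromosome 9 from 65568709 to 65570004, had −log10 q of 1.03 and 1.25 in the siArid1aplusEGF libraries, the first of which is the lowest value in its list. It was covered over 612 and 739 bp in those libraries and over 0 bp in the other 6. The next lowest, on chromosome 19 from 45154196 to 45155351 and on chromosome 5 from 109103402 to 109104927, had −log10 q of 1.67 and 1.07, and of 2.51 and 1.07.

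Just outside the rule, 487 regions failed it by a peak in 1 EGF library, and the median percentile of that peak was 13.1. A further 241 failed by a peak in both ctrl libraries, the weaker of which had a median percentile of 15.5. Of the 487 regions, 69.0% had a peak in both siArid1a libraries, close to the 68.2% of the 443, and of the 241, 95.4%.

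Covered length was compared by limma across the 28146 regions held by 2 or more libraries, on log2(covered bp + 200), with Benjamini-Hochberg adjustment over all of them. For siArid1aplusEGF minus EGF, 12 of the 443 regions were called higher and 0 lower, beside backgrounds of 66 regions or 0.234% called higher and 0.426% called lower. The median log2 difference of the 443 was 1.75, and 0 over all regions. With EGF at 0 bp its size follows the pseudocount, at 3.36 with 50 bp and 0.57 with 1000 bp. The rule chose on this contrast, so nothing is read from the count. With 1 library left out the median log2 difference of the 443 ranged from 1.68 to 1.78.

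For siArid1a minus ctrl, where the rule held the ctrl side low, 23 of the 443 were called higher and 0 lower, beside backgrounds of 1.09% higher and 0.274% lower. All 23 were among the 302 regions with both siArid1a peaks. The median log2 difference was 1.23, against 0.18 over all regions. It was 0.50 without the first and 1.82 without the second ctrl library, 0.50 after quantile normalization, and 2.13 and 0.43 with pseudocounts of 50 and 1000 bp. Over all regions the median was 0.01 and 0.35 without the first or second ctrl library. Without the first or second siArid1a library the median of the 443 was 1.37 and 1.15, against 0.21 and 0.15 over all regions. The count of 23 became 0 after quantile normalization and with the replicate number as a block, where 0 of all regions were called.

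For siArid1aplusEGF minus siArid1a, 26 were called higher and 0 lower, beside backgrounds of 0.622% higher and 6.0% lower. All 26 lacked a siArid1a peak, so they were again picked by peak presence. The median log2 difference was -0.07 over the 443 regions, -0.43 over the 302 with both siArid1a peaks and 1.497 over the 60 with none, against -0.32 over all regions. The median of the 443 turned to 0.81 after quantile normalization, where that of all regions was 0.08, and to 0.42 on lists of equal length, where it was -0.22. It lay above the median of all regions in each of these settings. The rule asks for both siArid1aplusEGF peaks, which favours this order, so nothing is read from it. With 1 library left out the median of the 443 ranged from -0.22 to -0.007.

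For siArid1aplusEGF minus ctrl, 49 of the 443 were called higher and 0 lower, beside backgrounds of 0.927% higher and 3.35% lower. The rule asks for both siArid1aplusEGF peaks and holds the ctrl side low, so nothing is read from the count of 49. The median log2 difference was 1.22, against -0.10 over all regions, and ranged from 0.88 to 1.71 with 1 library left out. For EGF minus ctrl 0 were called by limma at the adjusted threshold, and 0 at an unadjusted p under 0.05. The backgrounds were 1.05% higher and 2.9% lower. The rule holds EGF at 0 bp, so no region could be higher there, and it excludes regions with both ctrl peaks. Nothing is read from these counts. The median log2 difference was -0.61, with -1.04 when the first ctrl library was left out and 0 when the second was.

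The difference between the knockdown effect with EGF and that without was tested as an interaction in the same limma fit. It called 0 of the 443 and 0 of the 28146 regions (0.0%). Before adjustment, 59 of the 443 were higher and 4 lower at a p under 0.05, against 561 higher and 1964 lower among the 28146. The rule fixes the siArid1aplusEGF and EGF sides of this difference, so nothing is read from the excess of higher values or from their median. The median log2 interaction of the 443 was 0.63, but -0.035 without the second ctrl library and 1.25 without the first, and 1.37 and 0.17 with pseudocounts of 50 and 1000 bp. It was 0.38, 1.07 and 1.60 for regions with both, 1 and neither siArid1a peak, which follows from the peaks the classes were made of. An adjusted p that misses the threshold does not show that the knockdown effect was the same with and without EGF. Without the first or second siArid1a library the median interaction was 0.47 and 0.67, against -0.19 and -0.14 over all regions.

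Position was not part of the rule. The 443 regions lay close to regions with a peak in all 8 libraries, with a median gap of 14.2 kb, against 40.1 kb for the 432 reversed regions and 18.8 kb for the 9664 regions with a peak in 2 to 6 libraries. Within 5 kb of such a region lay 116 of the 443 (26.2%), 47 of the reversed (10.9%) and 21.4% of the 9664. Within 100 kb on either side of the middle, the median number of such regions was 4 for the 443, 2 for the reversed and 3 for the 9664, and none was found for 31 (7.00%), 127 (29.4%) and 15.6%.

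Within the 443 regions the median gap was 14.9 kb with both siArid1a peaks, 14.95 kb with 1 and 10.3 kb with neither, and 23.8%, 29.6% and 33.3% lay within 5 kb. Without a ctrl peak it was 11.5 kb for the siArid1aplusEGF regions and 35.9 kb for the reversed regions, and with the second ctrl library alone 16.9 and 42.4 kb. These are descriptions over regions, which are not replicates, and no test was run on them.

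**Figure D5:**
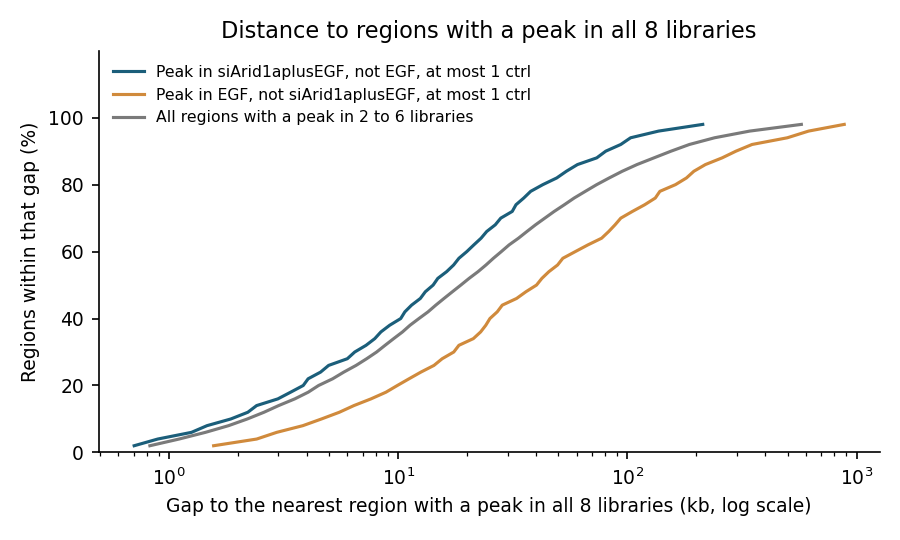
Cumulative share of regions (%) by gap to the nearest region with a peak in all 8 libraries (kb, log axis), for the 443 regions in siArid1aplusEGF and not EGF (blue), the 432 of the reversed rule (orange) and all 9664 regions with a peak in 2 to 6 libraries (grey). The blue curve lies left of the other curves, with a median gap of 14.2 kb against 40.1 and 18.8 kb.

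The nearest EGF peak was 11.4 kb away in the median, and 12 of the 443 regions lay within 1 kb of one. At least 649 bp separated each region from any EGF peak. In the reversed set the nearest siArid1aplusEGF peak was 24.8 kb away in the median. More than 50 kb from any EGF peak lay 59 of the 443 (13.3%), against 149 of the reversed regions (34.5%) from any siArid1aplusEGF peak.

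The median width of the 443 regions was 973 bp (interquartile range 675 to 1368 bp), against 991 bp for the reversed regions, 1002 bp for the regions with a peak in 2 to 6 libraries and 2210 bp for those with a peak in all 8. Of the chromosomes, 4 are named for their shares, chosen after these were seen. On them, 52 of the 443 (11.7%) lay on chromosome 11, against 7.18% of the reversed and 7.64% of the regions with a peak in 2 to 6 libraries. Chromosome 7 held 44 (9.93%), against 5.32% and 6.14%, and chromosome 2 held 42 (9.48%), against 5.79% and 7.14%. Chromosome 12 held 10 (2.26%), against 6.02% and 4.19%.

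Few of the regions stood in groups. With gaps of at most 50 kb, 44 of the 443 fell into 21 groups, the largest of 3. One of these spans 43.6 kb on chromosome 2 from 101757993 to 101801601 and holds its 3 regions and no other region, hence no EGF peak at all. The first of its regions had 610 and 709 bp in siArid1aplusEGF, 2610 and 1255 bp in siArid1a and 0 and 1443 bp in ctrl libraries. The second had 471 and 815 bp in siArid1aplusEGF, 1582 and 2069 bp in siArid1a and 0 and 300 bp in ctrl libraries. The last had 368 and 708 bp in siArid1aplusEGF, 718 and 696 bp in siArid1a and 0 and 1096 bp in ctrl libraries. All 3 were thus present in the 4 knockdown libraries and the second ctrl library, and missing from both EGF libraries and the first ctrl library.

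The other group of 3 spans 24.6 kb on chromosome 2 from 27210334 to 27234919, where 1 of 5 regions had a peak in all 8 libraries and was the only one with an EGF peak. Its regions were covered over 232 and 289 bp, 1191 and 962 bp, and 913 and 1541 bp in siArid1aplusEGF libraries. In the siArid1a libraries they had 638 and 422 bp, 488 and 734 bp, and 1422 and 2771 bp, and in the second ctrl library 812, 1789 and 1602 bp. The middle one was wider in both siArid1aplusEGF than in both siArid1a libraries.

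Of the smaller groups, 2 regions on chromosome 11 from 11719827 to 11727443 included the third-widest region above, and the other had 380 and 1229 bp in siArid1aplusEGF, 2018 and 1471 bp in siArid1a and 1098 and 0 bp in ctrl libraries. A group of 2 on chromosome 4 from 150243327 to 150246721 had 841 and 430 bp, and 505 and 640 bp, in siArid1aplusEGF libraries. In siArid1a libraries it had 502 and 855 bp, and 200 and 413 bp, and in ctrl libraries 0 and 210 bp, and 0 and 585 bp. On chromosome 9 from 121893835 to 121905133, 2 regions had 434 and 371 bp, and 264 and 236 bp, in siArid1aplusEGF libraries. In siArid1a libraries they had 321 and 279 bp, and 406 and 461 bp. In ctrl libraries the first of these had no peak and the other 0 and 283 bp. No EGF peak lay inside any of these 3 groups.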

How the data were processed

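The authors deposited 1 peak list per library, with 9 columns and no header, so peaks were called per sample. The submitters' processing notes name build mm9 and, with no role or order, the tools deepTools 3.0.2, MACS2 2.1.1.20160309.0, Bowtie2 2.3.4.2 and SAMtools; caller settings and any input library are not given there. In the lists as deposited, nearly every score equals 10 times the peak's −log10 q, rounded down. Fold enrichment, as deposited, is a ratio to the background that the caller estimated. The authors' −log10 q was used for single peaks and their −log10 p was not used. Read depth is unknown, so the part of depth in list length was not tested.

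Regions were merged, ranked and counted in Python 3.11.15 with pandas 2.3.3, NumPy 2.4.6 and SciPy 1.17.1, and drawn with matplotlib 3.10.9. Covered length was fitted with limma 3.58.1 in R 4.3.3, with a mean per group and moderated variances that follow the average level, threshold 0.05 on the adjusted p. All 443 regions entered this fit. Merging and fitting were tested on simulated data. Named regions are the 10 first by the lower within-list percentile in the siArid1aplusEGF libraries, the 5 first with no and with both siArid1a peaks, the 3 widest, the 3 lowest and 5 groups within 50 kb, those with most members and then the shortest. The set and these rules were chosen with earlier results of these data known, and the comparison with ctrl left free, the regions just outside the rule and the distances to regions held by all libraries were added after seeing the data. Gene lists, promoters and motifs had been planned and were not analysed here, for want of an mm9 annotation.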

Additional observations from a re-analysis of the deposited data

Results flagged for a closer look

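The siArid1a and ctrl libraries moved in opposite directions in a comparison that used neither. In both siArid1a libraries the 684 regions with a peak in both siArid1aplusEGF and neither EGF library were held more often than the 793 with the reverse, and in both ctrl libraries less often, a difference of 37.6 percentage points between the groups. The exact permutation p of 0.333 is the smallest that 2 libraries against 2 allow. The siArid1a lists are longer than the first ctrl list and close in length to the second. With the second ctrl library left out the difference was 38.2 points, with the first left out 36.8. The part of list length in this difference was not tested.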

How the results depend on the processing

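The difference of 37.6 points between siArid1a and ctrl libraries kept its direction in all 13 alternatives, at 36.6 with peaks at or above the median of their list, 37.6 with peaks above the pooled median, 44.8 on lists of equal length, 32.3 with 50% of the region covered, 37.5 with peaks within 500 bp merged, and 26.8 to 39.5 with 1 library left out. The number of regions, 443, became 245 with peaks at or above the median of their list, 452 to 1417 with 1 library left out (fewer conditions are then set), and, in alternatives chosen after seeing the data, 185 with no ctrl peak allowed and 684 with ctrl free. The share with both siArid1a peaks was 78.4% and 79.1% with peaks above the list or pooled median, 46.9% on lists of equal length, 47.6% with no ctrl peak, 77.8% with ctrl free and 42.6% to 79.6% with 1 library left out, lowest without the first siArid1aplusEGF library. The share with neither was 10.2% above the pooled median, 29.6% on lists of equal length, 24.9% with no ctrl peak, 8.92% with ctrl free and 8.87% to 34.5% with 1 library left out.

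Limma counts over the set, higher and lower calls together, depended on nearly every setting, and beyond fewer or more regions tested the cause was not tested. With a pseudocount of 50 bp, 55 were called for siArid1aplusEGF minus EGF and 62 for siArid1a minus ctrl. For siArid1aplusEGF minus siArid1a 46 were called, and for siArid1aplusEGF minus ctrl 105. Of all 28146 regions, 508, 842, 2233 and 1608 were called in that order. With 1000 bp the counts were 0 for the first, 9 for the second and 26 for the last, beside 0, 121 and 921 of all regions. With no filter they were 1, 0, 12 and 21, beside 98, 0, 1368 and 783 of 33920. With a peak in at least 3 libraries they were 5, 0, 0 and 23, beside 140, 0, 1225 and 1129 of 25453. Quantile normalization gave 4, 0, 53 and 81, beside 178, 0, 902 and 1308 of 28146. Peaks above the pooled median gave 119, 92 and 121 for the first, second and last, beside 520, 678 and 769 of 14573. They gave 28 for the interaction, beside 812 of 14573. Lists of equal length gave 103, 70, 98 and 151, beside 519, 641, 1659 and 1588 of 24966. With 1 library left out the ranges were 0 to 104, 0 to 185, 0 to 74 and 0 to 135, 0 to 33 for the interaction and 0 to 113 for EGF minus ctrl. The lone library of a group is then assumed to vary like the others. The median of siArid1aplusEGF minus siArid1a turned to 0.81 under quantile normalization and 0.42 on lists of equal length, and that of the interaction ranged from -0.035 without the second ctrl library to 1.25 without the first. For siArid1aplusEGF minus siArid1a the median of all regions was 0.08 under quantile normalization and -0.32 without it.

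Same-numbered libraries did not deviate together in covered length (correlations of -0.01 to 0.03 over regions between groups), so no pairing by number was seen in this measure. Whether they were prepared together is not known. With the replicate block the counts were 0 for siArid1aplusEGF minus EGF, 0 for siArid1a minus ctrl, 8 for siArid1aplusEGF minus siArid1a and 0 for siArid1aplusEGF minus ctrl. Over all 28146 regions they were 0, 0, 1176 and 91.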
